A study of Mus musculus with 7 samples.

Results

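Albumin, apolipoproteins and plasma carriers are the proteins that liver parenchymal cells secrete into blood, and the transcripts of 10 such genes (Alb, Ttr, Trf, Ahsg, Rbp4, Apoa1, Apoa2, Apob, Apoc3 and Apoe) were followed in cultured mouse liver slices. The 10 genes were picked by name, and each symbol matched a single Ensembl row in the GENCODE annotation of GRCm38, out of 55487 genes listed for the series. RNA was sequenced from precision-cut liver slices (PCLS), thin discs of living liver kept in medium, after 3 days of culture. Slices came from healthy adult male BALB/c mice, for which the study names no engineered mutation or transgene. In the control group (CTR, 3 libraries) the Williams' E medium held no valproate, while in the VPA group (4 libraries) slices were cut and cultured in medium with 2.5 mM valproic acid sodium salt, a histone deacetylase inhibitor. All slices of both groups went through the same cutting, punching and shaking culture, and uncultured liver was not analysed here. The titles also give each library a slice number, here called its slice culture. CTR libraries 1, 2 and 3 carried the numbers 72, 74 and 71, and VPA libraries 1, 2, 3 and 4 carried 73, 74, 71 and 72. The study counts each different mouse liver as a biological repeat and gives n = 4 for these cultures. The labels do not say whether a slice number stands for 1 mouse, so p-values measure the spread between these libraries, part of which may be technical.

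Albumin keeps the osmotic pressure of plasma and binds fatty acids, bilirubin and drugs. Transthyretin (Ttr) and retinol-binding protein 4 (Rbp4) circulate as a complex that carries retinol, and Ttr also carries thyroxine. Transferrin (Trf) carries ferric iron, and fetuin-A (Ahsg) keeps calcium phosphate in solution. Apolipoproteins coat the lipid particles of plasma. Apoa1 and Apoa2 form high density lipoprotein, Apob is the scaffold of very low density lipoprotein, Apoc3 slows the clearance of triglyceride-rich particles, and Apoe directs remnants to their receptors and is also made by macrophages and stellate cells. In hepatocytes these genes are under the control of liver-enriched factors such as HNF1, HNF4, FOXA and C/EBP proteins, and the mRNAs are among the most abundant of the normal liver.

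The stretch of DNA before the start site was taken from RefSeq (GRCm38.p6), with 250 bases used for each of 7 of the 10 genes (Alb, Ahsg, Rbp4, Apoa1, Apoa2, Apob and Apoe). Of these, 4 are printed, 5′ to 3′ on the strand of the gene. They are the 3 whose TMM-scaled level differed most between libraries (Alb, Apoa1 and Apob) and Apoe, which differed least. Scaled by library size only, Trf (5.76-fold) ranged more widely than Apob (4.62-fold), and Apoa2 (4.62-fold) about as widely. Bases that GENCODE counts as part of a transcript were left off. The sequences cover chr5:90460620-90460869 on the plus strand, chr9:46228380-46228579 on the plus strand, chr12:7977427-7977647 on the plus strand and chr7:19699189-19699438 on the minus strand. Capitals mark matches on either strand to 1 of 5 letter strings, namely an HNF1 half-site (GTTAAT), an HNF4 core (CAAAGTC), a FOXA core (TGTTTNC, where N is any base), a TATA box (TATAAA) and the CCAAT box, spelled as its name. Both the strings and the genes shown were chosen after the levels were seen. None of the marked matches overlapped another.
Alb: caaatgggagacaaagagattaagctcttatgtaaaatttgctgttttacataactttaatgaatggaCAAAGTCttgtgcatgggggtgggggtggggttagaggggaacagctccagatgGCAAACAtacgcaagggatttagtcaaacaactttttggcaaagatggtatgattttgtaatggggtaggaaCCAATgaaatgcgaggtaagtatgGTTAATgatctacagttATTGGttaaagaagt
Apoa1: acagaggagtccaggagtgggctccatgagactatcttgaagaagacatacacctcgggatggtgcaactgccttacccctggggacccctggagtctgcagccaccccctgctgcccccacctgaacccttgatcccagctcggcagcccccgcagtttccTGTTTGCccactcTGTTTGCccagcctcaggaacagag
Apob: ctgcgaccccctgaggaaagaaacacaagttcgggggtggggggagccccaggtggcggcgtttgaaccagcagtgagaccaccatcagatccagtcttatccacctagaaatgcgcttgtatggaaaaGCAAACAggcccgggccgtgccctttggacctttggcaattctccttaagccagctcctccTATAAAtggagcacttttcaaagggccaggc
Apoe: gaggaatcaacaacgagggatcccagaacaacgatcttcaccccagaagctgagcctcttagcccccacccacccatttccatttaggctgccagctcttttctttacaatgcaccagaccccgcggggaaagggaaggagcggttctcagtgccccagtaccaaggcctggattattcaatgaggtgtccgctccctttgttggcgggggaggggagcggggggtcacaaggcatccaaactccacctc

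Within the full 250 bases, the HNF1 string was found in 1 of the 7 genes, Alb, against 6.43% of 32851 promoters of the same length on chromosomes other than 18. The HNF4 string stood in 2 of 7 (Alb and Ahsg) against 3.84% of promoters, the CCAAT string in 3 of 7 (Alb, Rbp4 and Apoa2) against 33.8%, and the TATA string in 2 of 7 (Apoa2 and Apob) against 12.4%. The FOXA string was the commonest, present in 6 of 7 genes against 17.8% of promoters. Apoe held none of the 5. The windows follow the RefSeq start sites. That of Ahsg lies 738 bases past the GENCODE start and so wholly inside the GENCODE gene, and those of Apoa1 and Apob run 50 and 29 bases past it. These are matches of letters, and binding was not measured.

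The libraries were made with a 3′ end kit, so a transcript gives about 1 read whatever its length. Levels in CPM (counts relative to the TMM-scaled library total) were set side by side between genes on that basis. How reads were counted is not given, and Ass1, a hepatocyte marker, was listed at 0 in all 7 libraries. Orders and ratios between genes are therefore uncertain. Total counts ran from 1743675 to 4773750 in CTR and from 1400887 to 3102450 in VPA. Every gene of the 10 was counted in every library, with at least 71 counts (Apoc3 in VPA library 4) and at most 16093 (Trf in CTR library 3). Transcripts of the mitochondrial genome took 20.2 ± 6.76% of counts in CTR (SD, n = 3) and 28.7 ± 4.31% in VPA (n = 4). Each pair of libraries of a group differed by more than counting noise (chi-square per degree of freedom 14.7 to 27.3), so none was a copy of another. Genes with a count numbered 17744 to 19756 in CTR and 14359 to 16761 in VPA, without overlap, and not in the order of depth, since VPA library 2 with 3102450 counts had 15241 such genes and CTR library 3 with 1743675 counts had 17744.

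The tissue label was checked against 32 other hepatocyte markers. All but 1 of them (Ass1) were counted in at least 1 library, but 15 were listed at 0 in 1 or more libraries and above it in others, with 4 to 10 of the 32 at 0 in a given library. Their summed level was 3462 to 5683 CPM in CTR and 2572 to 5502 CPM in VPA. Of the 24 that could be tested, 16 had a higher and 8 a lower mean with VPA, none passed the test, also at an unadjusted p under 0.05, and the median log2 difference was 0.13. Summed markers of stellate cells and myofibroblasts were 3990 to 7128 CPM in CTR and 2728 to 4641 CPM in VPA, and the 18 tested had a median log2 difference of -0.77. In whole slices, fewer cells of a type and less RNA per cell cannot be told apart.

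No change with VPA was called for any of the 10 genes. In the edgeR quasi-likelihood test over 10876 genes, with all 7 libraries and condition as the only term, 0 of 10 passed an adjusted p of 0.05 in either direction, 0 of 10 had an unadjusted p below 0.05. The same test called 0.00919% of all genes higher (the single gene Creb3l3) and 0.0% lower, and 8.27% had an unadjusted p below 0.05. DESeq2 also called 0 of 10, beside 1.01% of the 15261 genes it adjusted (39 higher, 115 lower), as did limma-voom, beside 0.00919%. In all 10 genes the ranges of the 2 groups overlapped. Of all genes tested 11.9% had ranges that did not, a share too small to set 10 genes apart. By fitted means 4 of the 10 were higher (Alb, Ahsg, Apob and Ttr) and 6 lower with VPA, with a median log2 difference of -0.14, beside -0.06 over all genes tested. Such a p does not show that the groups had the same levels, since the standard errors of the log2 differences ran from 0.31 (Rbp4) to 0.81 (Apoa1).

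Albumin mRNA was at 812, 1604 and 2137 CPM in CTR libraries 1, 2 and 3, and at 4977, 1524, 1876 and 772 CPM in VPA libraries 1 to 4. A single VPA library, number 1, stood above all the others, and VPA library 4 was the lowest of the 7. The mean was 1518 ± 666 CPM in CTR (n = 3) and 2287 ± 1852 CPM in VPA (n = 4), and the log2 difference of 0.59 (SE 0.63) had an adjusted p of 0.914 by edgeR. Without VPA library 1 the log2 difference was -0.13, so its sign rests on that library. Albumin was also not the leading transcript in any library: its place among all genes ranged from 11 to 104, where the top place was held in all 7 libraries by mt-Rnr2, a ribosomal RNA of the mitochondrion.

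Transthyretin and Rbp4, partners in carrying retinol, were at similar levels. Ttr was counted at 202, 577 and 340 CPM in CTR and at 618, 327, 317 and 239 CPM in VPA, and the group means of 373 ± 189 and 375 ± 166 CPM gave a log2 difference of 0.01 (SE 0.43, adjusted p = 1.00 by edgeR). Rbp4 was at 384, 327 and 716 CPM in CTR and at 336, 447, 394 and 249 CPM in VPA. CTR library 3 was high for Rbp4, and the other 6 libraries lay within a range of 249 to 447 CPM. The log2 difference of Rbp4 was -0.41 (SE 0.31), which did not pass (adjusted p = 0.852 by edgeR). The ratio of Rbp4 to Ttr ran from 0.567 to 2.11 in CTR and from 0.544 to 1.37 in VPA, a comparison chosen after the values were seen.

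Transferrin, the iron carrier, had the highest mean of the 10. Its values were 3620, 2004 and 8667 CPM in CTR and 3046, 2842, 8773 and 1727 CPM in VPA. The highest library of each group, CTR 3 and VPA 3, carried the same slice culture number, 71. The log2 difference was -0.22 (SE 0.66, adjusted p = 0.969 by edgeR). Fetuin-A (Ahsg) was at 1325, 1193 and 2425 CPM in CTR and at 2650, 2861, 2354 and 1053 CPM in VPA. For Ahsg, 2 of the 4 VPA libraries exceeded every CTR library and 1 lay below them all, and the log2 difference was 0.44 (SE 0.39, adjusted p = 0.897 by edgeR).

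Apolipoprotein A-I had the largest difference of the 10, and the widest spread. Apoa1 was at 1380, 387 and 3592 CPM in CTR and at 746, 246, 1208 and 254 CPM in VPA. All 4 VPA values were below CTR libraries 1 and 3, while CTR library 2 was below 2 of the VPA libraries, so the groups overlapped. The mean was 1786 ± 1641 CPM in CTR and 614 ± 460 CPM in VPA, a log2 difference of -1.54 (SE 0.81), with an unadjusted p of 0.0968 and an adjusted p of 0.706 by edgeR. An exact permutation test (two-sided, 35 arrangements of the 7 libraries) gave p = 0.229 for Apoa1, where the smallest p possible is 0.0286. Without CTR library 3 the log2 difference was -0.56, and without VPA library 3, of the same slice culture (71), it was -2.11.

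Its partner in high density lipoprotein, Apoa2, did not follow it. Apoa2 was at 304, 671 and 173 CPM in CTR and at 459, 295, 174 and 222 CPM in VPA, with a log2 difference of -0.42 (SE 0.49, adjusted p = 0.933 by edgeR). CTR library 3, which had the most Apoa1, had the least Apoa2 of the CTR group, at about the level of VPA library 3. CTR library 2, with the least Apoa1 of the CTR group, had the most Apoa2. As a result the ratio of Apoa1 to Apoa2 was 4.54, 0.576 and 20.7 in the CTR libraries and 1.63, 0.834, 6.96 and 1.14 in the VPA libraries (chosen after the values were seen). The VPA ratios lay inside the CTR range, and an exact permutation test of the log2 ratio gave p = 0.514.

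Apolipoprotein B, which each very low density particle holds as a single copy, was at 101, 55.6 and 218 CPM in CTR and at 201, 83.7, 307 and 129 CPM in VPA. The lowest value (CTR library 2) was of slice culture 74 and the highest (VPA library 3) of 71, and the log2 difference was 0.53 (SE 0.57, adjusted p = 0.915 by edgeR). Apoc3, the least abundant of the 10, was at 82.4, 135 and 89.4 CPM in CTR and at 137, 83.7, 65.5 and 52.7 CPM in VPA. Its log2 difference was -0.27 (SE 0.35, adjusted p = 0.937 by edgeR). For Apoc3, 2 VPA libraries lay below every CTR library and 1 above them all.

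Apolipoprotein E had the narrowest range of the 10. It was at 2055, 2259 and 3861 CPM in CTR and at 3341, 1770, 3234 and 2093 CPM in VPA. No VPA library was above the CTR range and 1 was below it. The log2 difference was -0.06 (SE 0.32, adjusted p = 0.981 by edgeR), and the highest library, CTR 3, held 2.18 times the level of the lowest, VPA 2. Exact permutation p-values for the 10 levels ran from 0.229 (Apoa1) to 0.914 (Ttr).

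**Figure D1:**
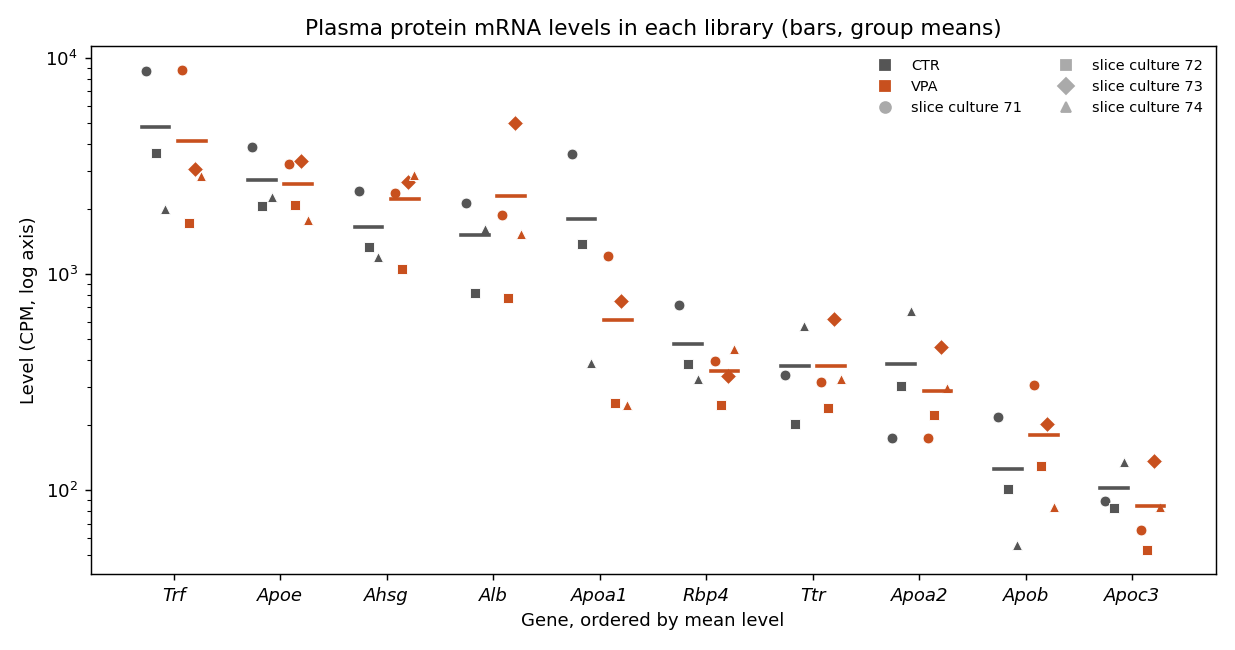
Level of each gene (CPM, log axis) in each of the 7 libraries, with CTR in grey and VPA in orange, the symbol giving the slice culture and the bar the group mean. The groups overlap for all 10 genes, and the Apoa1 values run from 246 to 3592 CPM.

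Ordered by mean level over the 7 libraries, Trf (4383 ± 3030 CPM, SD) came first, followed by Apoe (2659 ± 804), Ahsg (1980 ± 761), Alb (1957 ± 1425), Apoa1 (1116 ± 1181), Rbp4 (407 ± 150), Ttr (374 ± 161), Apoa2 (328 ± 181), Apob (157 ± 89.1) and Apoc3 (92.2 ± 32.3). In no pair of neighbours was the higher gene above the next in all 7 libraries, and the ranges of mean ± SD of neighbours overlapped. A gene was above the next in the order in 4 of 7 libraries for Trf over Apoe, in 6 of 7 for Apoe over Ahsg and for Apoa1 over Rbp4, and in 5 of 7 for each of the other pairs. Alb was above Trf in VPA library 1 alone. The order differed by group. By CTR means Apoa1 (1786 CPM) was above Ahsg (1648) and Alb (1518), and Apoa2 (383) above Ttr (373), while by VPA means Alb (2287) was above Ahsg (2230), and Ttr (375) above Rbp4 (356).

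Together the 10 genes took 0.967, 0.996 and 2.37% of all counts in the CTR libraries and 1.70, 1.12, 1.69 and 0.630% in the VPA libraries, a mean of 1.44 ± 0.799% (n = 3) and 1.28 ± 0.514% (n = 4). VPA library 4 had the smallest share and CTR library 3 the largest. With mitochondrially encoded transcripts left out of the total, the means were 1.77 ± 0.863% and 1.80 ± 0.730%, so the order of the groups turned round with the denominator, and both differences were far below the SD within a group. Counting error was small beside this spread. The lowest share of albumin, 0.0716% of counts in VPA library 4, had a 95% Wilson interval of 0.0674 to 0.0761%, and the highest, 0.512% in VPA library 1, one of 0.501 to 0.523%. These intervals cover counting error only.

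The makeup of this share differed between libraries. Trf was the largest of the 10 in CTR libraries 1 and 3 and in VPA library 3, where it made up 35.3, 39.0 and 46.9% of their counts. Alb led in VPA library 1 with 30.1%, Ahsg in VPA library 2 with 27.3%, and Apoe in CTR library 2 and VPA library 4 with 24.5 and 30.8%. Apoa1 took 13.4, 4.20 and 16.2% in CTR and 4.52, 2.35, 6.46 and 3.74% in VPA. Only CTR library 2 lay among the VPA values.

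**Figure D2:**
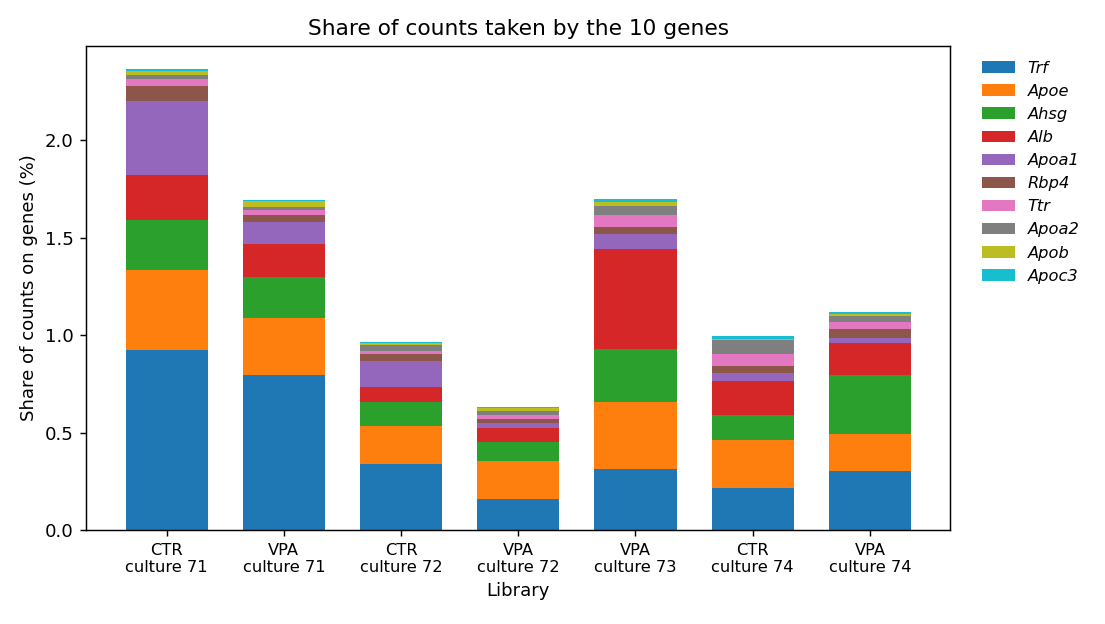
Share of counts on genes (%) taken by the 10 genes in each library, stacked by gene and ordered by slice culture. The total runs from 0.630% in VPA library 4 to 2.37% in CTR library 3, and slice culture 71 has a large transferrin block in both groups.

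Each gene was also divided by albumin in the same library, a measure that does not depend on how libraries are scaled. Apoa1 over Alb was 1.70, 0.241 and 1.68 in CTR and 0.150, 0.162, 0.644 and 0.329 in VPA. Again CTR library 2 alone was within the VPA range. The mean log2 ratio differed by -1.72 between VPA and CTR, and an exact permutation test gave p = 0.171 (0.735 after Benjamini-Hochberg adjustment over 9 ratios). Exact permutation p-values for the other 8 ratios ran from 0.229 (Apoc3) to 1 (Ahsg), and adjusted values from 0.735 to 1. All 9 ratios share the albumin value, whose mean log2 CPM differed by 0.37 between VPA and CTR, so the directions of the ratios were not counted. Leaving out 1 library moved the Apoa1 value between -2.66 (without CTR library 2) and -1.25 (without CTR library 1).

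The spread between libraries of a group was wide for these genes beside that of all well-counted genes. Other plasma carriers were not compared in this way, and some, such as Gc (659 to 2063 CPM in CTR), also ranged widely. Among 1557 genes with a mean of at least 100 CPM, which included 9 of the 10 (Apoc3 was below), the median SD of log2 CPM was 0.214 in CTR and 0.299 in VPA. All 9 were above the median in both groups. In CTR 7 of 9 were above the 90th percentile of 0.558, all but Ahsg and Apoe, and in VPA 5 of 9 were above that of 0.623, namely Apoa1, Alb, Trf, Apob and Ahsg. Apoa1 had an SD of 1.61 in CTR, larger than that of 99.3% of the genes, and of 1.15 in VPA. Albumin had an SD of 0.72 in CTR and of 1.11 in VPA.

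Highest over lowest level across the 7 libraries was 14.6-fold for Apoa1, 6.45-fold for Alb, 5.52-fold for Apob, 5.08-fold for Trf and 3.87-fold for Apoa2, and these 5 of the 9 were beyond the 90th percentile of such genes (3.61-fold on the scale with a prior count). The count was 4 to 5 of 9 when a library was left out, an alternative chosen after the data were seen, and 5 of 9 when counts were scaled by library size only. By library size only, 8 of 9 in CTR and 7 of 9 in VPA were above the 90th percentile of the SD. Ahsg, Rbp4, Ttr and Apoe varied from 2.18-fold to 3.05-fold.

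**Figure D3:**
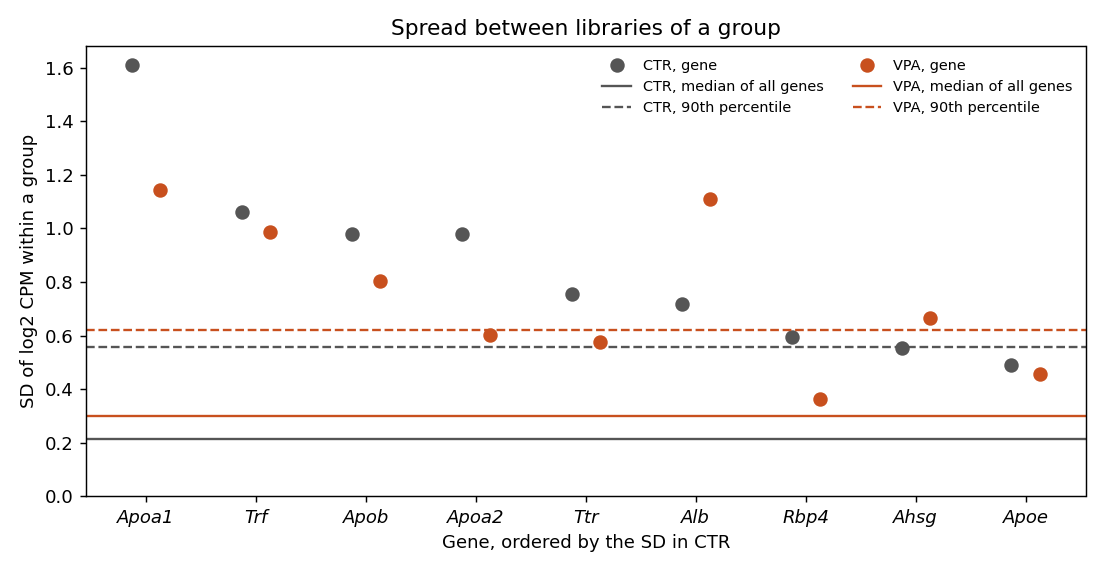
SD of log2 CPM within CTR (grey) and within VPA (orange) for the 9 genes with a mean of at least 100 CPM. Solid lines are the medians of 1557 such genes and dashed lines their 90th percentiles, and all 9 genes lie above the solid line of their group.

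Levels were next compared by slice culture number. Both groups held a library of cultures 71, 72 and 74, which gave 3 pairs of the same number and 9 pairs of different numbers. For albumin the VPA library differed from the CTR library of its own culture by -0.19, -0.07 and -0.07 on the log2 scale in cultures 71, 72 and 74. The mean absolute difference was 0.112 within a culture and 1.20 between cultures, so the pair of albumin values in a culture lay close together. The high VPA library 1 was of culture 73, which had no CTR library, so it entered only the pairs of different numbers. It widened the albumin difference between cultures. For every gene the comparison includes this library and was not repeated without it. The mean absolute difference was smaller within than between cultures for 8 of the 10 genes, all but Rbp4 and Apoc3. Over all genes tested this held for 61.9%, with medians of 0.566 within and 0.695 between cultures.

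Within cultures, Apoa1 was lower with VPA, with log2 differences of -1.57, -2.44 and -0.65 in cultures 71, 72 and 74. Apoc3 was also lower in all 3, with differences of -0.44, -0.64 and -0.69. Apob was higher in all 3, by 0.49, 0.35 and 0.58. With Alb, 3 of the 10 genes were lower in every culture, as were 19.9% of all genes tested, and 1 of 10 was higher in every culture, as were 15.3%. The remaining 6 moved in both directions. Ahsg differed by 1.26 in culture 74, by -0.33 in culture 72 and by -0.04 in culture 71, and Trf by 0.50, -1.07 and 0.02. Scaled by library size only, 4 of 10 were lower in every culture, Apoa2 being the added gene. With 3 pairs no sign test can reach 0.05.

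**Figure D4:**
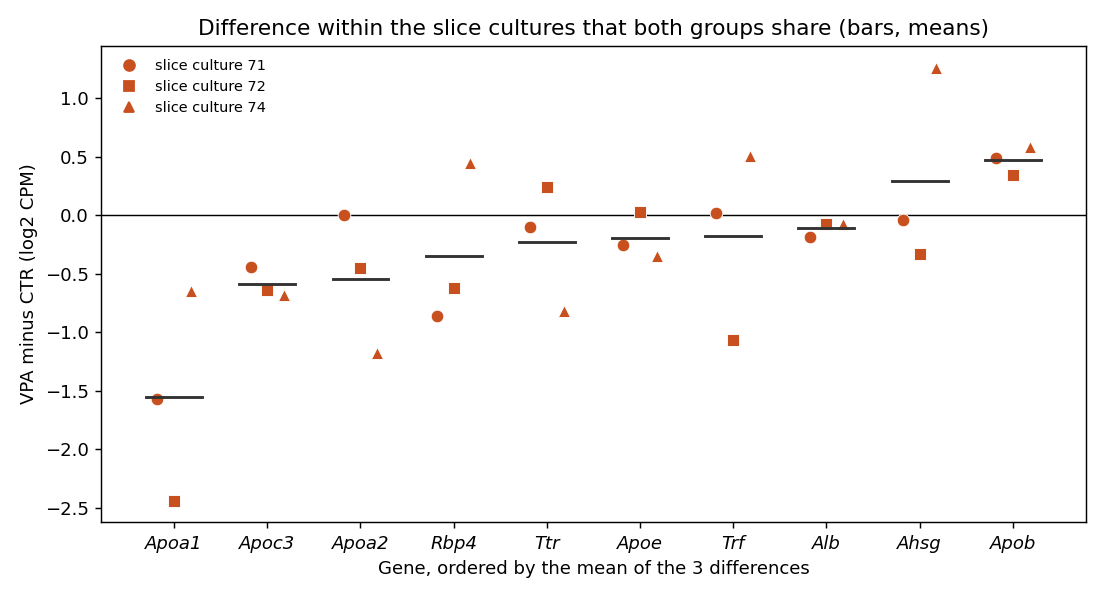
Difference between the VPA and the CTR library of the same slice culture (log2 CPM) for each gene, with the bar at the mean of the 3 cultures. Apoa1 and Apoc3 lie below 0 in all 3 cultures and Apob above it, and the 3 albumin points lie between -0.19 and -0.07.

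Several of the genes sit in clusters with relatives, whose levels were examined next. Apoa1 (chromosome 9, 46228580 to 46230466) and Apoc3 (46232933 to 46235636) lie beside each other on opposite strands, in a cluster with Apoa4 and Apoa5. Apoa4, an apolipoprotein of triglyceride-rich particles, was at 4.64, 15.1 and 5.92 CPM in CTR and at 51.3, 56.5, 82.8 and 55.6 CPM in VPA. The groups did not overlap, with a log2 difference of 2.80 (SE 0.47) and an unadjusted p of 0.000393, yet the adjusted p of 0.142 by edgeR did not pass. Apoa5, an activator of lipoprotein lipase, was at 31.2 to 47.3 CPM in CTR and 17.1 to 46.8 CPM in VPA (log2 difference -0.22, SE 0.38). So, of the 4 genes of the cluster, Apoa4 had a higher mean with VPA and the other 3 a lower one.

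In the Apoe cluster on chromosome 7, Apoc1, an inhibitor of lipoprotein uptake, was at 240 to 333 CPM in CTR and 165 to 361 CPM in VPA (log2 difference -0.32, SE 0.30). Apoc2, the cofactor of lipoprotein lipase, was counted 806, 119 and 1417 times in CTR, and 19, 0, 443 and 0 times in VPA. Apoc4 was at 53.4, 54.4 and 109 CPM in CTR, whereas it was listed at 0 in VPA libraries 1, 3 and 4 and at 22.0 CPM (73 counts) in VPA library 2. Fewer genes had a count in every VPA library than in any CTR library, as given above, and the part of this in the zeros of single genes was not tested. The log2 difference of Apoc4, -3.50 (SE 1.39), had an unadjusted p of 0.0374 and an adjusted p of 0.571 by edgeR. At these depths a listed 0 is compatible with a level of up to 0.581 to 2.37 CPM (3 counts over the TMM-scaled library total), counting error only. Apoc2 and Apoc4 both overlap the gene model Gm44805, which had 0 counts, so their values are uncertain.

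In the albumin cluster on chromosome 5, the vitamin D carrier Gc was at 859, 659 and 2063 CPM in CTR and at 1428, 1094, 1327 and 349 CPM in VPA (log2 difference -0.18, SE 0.55). Alpha-fetoprotein (Afp), the fetal relative of albumin, was at 24.0 and 37.2 CPM in CTR libraries 1 and 3 and at 25.2 CPM in VPA library 3, and listed at 0 in the other 4. Afm, the vitamin E carrier, was listed at 0 in all 7 libraries.

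**Figure D5:**
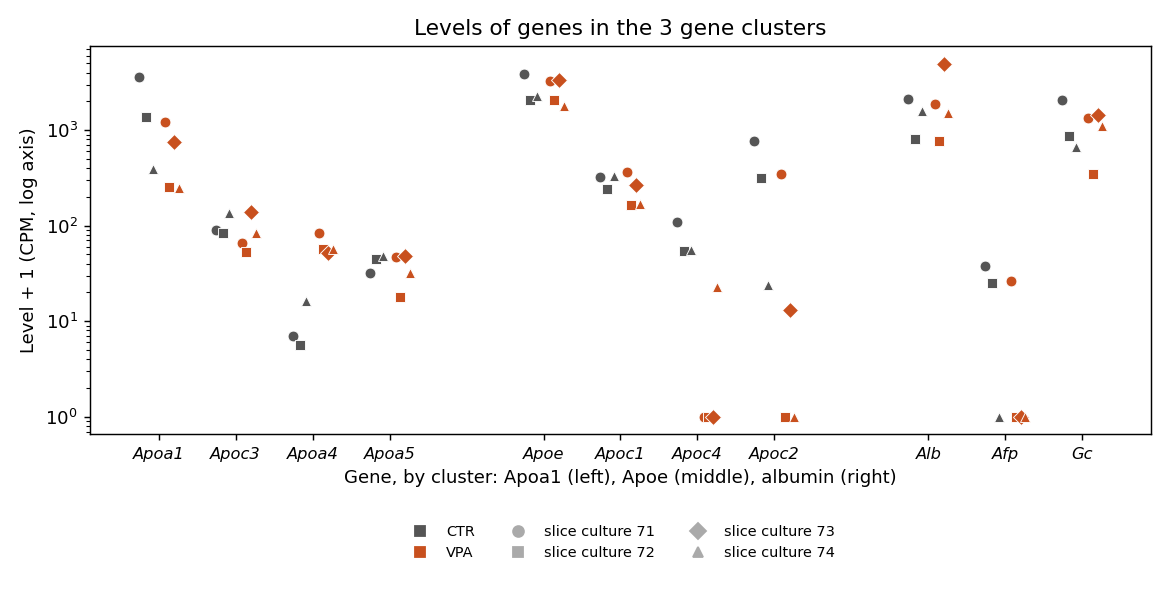
Level plus 1 (CPM, log axis) in each library of the genes of the Apoa1, Apoe and albumin clusters, with CTR in grey, VPA in orange and symbols for the slice culture. Apoa4 is the gene whose 4 VPA points (51.3 to 82.8 CPM) all lie above the CTR points, and Apoc4 has 3 VPA points at a listed level of 0. Afm, listed at 0 everywhere, is not drawn.

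Of 13 other apolipoproteins, 12 could be tested. Of these, 3 had a higher and 9 a lower mean with VPA, 0 passed the adjusted test, 1 higher (Apoa4) and 2 lower (Apoc4 and Saa4) had an unadjusted p below 0.05 (8.27% of all genes tested did), and the median log2 difference was -0.25. Apom, the carrier of sphingosine 1-phosphate, was at 44.5, 11.8 and 138 CPM in CTR and was listed at 0 in 3 VPA libraries, with 33.1 CPM in the other (log2 difference -3.04, SE 1.74). Apon had a log2 difference of 0.80 (SE 0.60). Among 23 genes for the assembly, remodelling and uptake of lipoproteins, 17 were tested, with 6 higher and 11 lower, 0 past the adjusted test and a median of -0.17. Scarb1, the receptor for high density lipoprotein, had a log2 difference of -1.99 (SE 1.05), the lipase Lipc one of 1.57 (SE 0.79) and the sorting receptor Sort1 one of 0.93 (SE 0.94). Scarb1, Sort1 and Lipc overlap other gene models and are uncertain.

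Of 17 other plasma carriers, 14 were tested, 3 of them higher and 11 lower with VPA, with 0 past the adjusted test, 1 higher and 3 lower at an unadjusted p below 0.05 (beside 8.27% of all genes) and a median of -0.65. Haptoglobin (Hp), which binds free haemoglobin, was at 639, 250 and 1344 CPM in CTR and at 93.0, 39.6, 289 and 45.3 CPM in VPA (log2 difference -2.69, SE 0.82, adjusted p = 0.447 by edgeR). The groups overlapped for Hp through CTR library 2 and VPA library 3. The thyroxine carrier Serpina7 was listed at 0 in 3 VPA libraries and at 11.5 CPM in the fourth, beside 12.0 to 25.3 CPM in CTR. Fetub, the paralogue of Ahsg, had a log2 difference of 0.95 (SE 1.10) and the paraoxonase Pon1 one of 1.56 (SE 1.63).

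Among 18 partners of iron and retinoid transport in the table, 16 were tested, 9 higher and 7 lower, with a median of 0.10 and 0 past the adjusted test. Rdh11, a retinol dehydrogenase, was at 32.9, 36.8 and 36.6 CPM in CTR and at 42.3 to 88.5 CPM in VPA, without overlap (log2 difference 0.76, SE 0.29, adjusted p = 0.553 by edgeR). The transferrin receptor Tfrc and the iron sensor Aco1 had log2 differences of -1.32 (SE 1.45) and -2.23 (SE 1.71). Hamp, which encodes the iron hormone hepcidin, was at 50.4 to 198 CPM in CTR, at 124, 68.3 and 797 CPM in VPA libraries 1 to 3, and was listed at 0 in VPA library 4.

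Of 18 liver transcription factors known to act on such genes, 14 were tested, 8 higher and 6 lower, with a median of 0.16. Creb3l3, a membrane-bound factor of the hepatocyte that acts on Apoa4 among other lipid genes, was the single gene of all 10876 to pass the edgeR test. It rose from 102 ± 21.4 CPM in CTR to 609 ± 74.9 CPM in VPA, a log2 difference of 2.58 (SE 0.20, adjusted p = 0.0247 by edgeR). In the fits without CTR library 1, 2 or 3 or without VPA library 1, 3 or 4, no gene was called higher, and the call was also lost with a block for slice culture or replicate number. Within slice cultures 71, 72 and 74 the log2 difference of Creb3l3 was 2.53, 2.35 and 2.71, so the lost call does not show a smaller change. Prox1 had a log2 difference of 0.55 (SE 0.34), Onecut1 one of -0.50 (SE 1.19) and the bile acid receptor Nr1h4 one of -1.05 (SE 2.16), and none of these 3 passed. The lists above were drawn up with earlier results of these libraries known, so a count over a list is a description.

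Profiles most like those of 3 of the genes were sought among 3206 genes with a mean of at least 50 CPM, by the root mean square difference of log2 CPM over the 7 libraries after each profile was centred. For Alb the nearest were Vtn (0.193), which encodes the plasma protein vitronectin, Apoh (0.346) and Fabp1 (0.383), the fatty acid-binding protein of liver. For Apoa1 the nearest were Kng2 (0.546), a kininogen, Sorbs2 (0.550) and Cp (0.569), the copper carrier ceruloplasmin, and for Apoe they were Aes (0.136), Npc1 (0.153) and Atf7ip (0.179). Among the other 9 genes, Alb was nearest to Ttr (0.509), Apoa1 to Trf (0.755) and Apoe to Rbp4 (0.430). The 7 points of a profile share library depth and slice culture, and this distance grows with the spread of a gene, so it was not compared between Alb, Apoa1 and Apoe.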

How the data were processed

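RNA of mouse PCLS on day 3 was sequenced as 3′ end libraries (QuantSeq FWD, single-end), 3 CTR and 4 VPA. The authors checked and trimmed the reads, mapped them with STAR to GRCm38 (mm10 in the submitters' processing notes), assembled genes with StringTie and deposited raw counts per Ensembl gene as whole numbers without normalization. The counting program and whether it used strand or multi-mapped reads are not given in the sources used here, so genes that overlap others are uncertain. Of the 10 genes, Trf overlaps Gm20425 (0 counts) and Ahsg the antisense gene Gm30505 (6 counts). Apoh, Cp, Kng2, Sorbs2, Npc1, Lipc, Prox1, Scarb1 and Sort1 overlap genes that have counts of their own. Some genes, such as Apoc2, have many counts in one library and are listed at 0 in another, and the cause was not tested.

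Groups and slice culture numbers came from the sample titles. GENCODE gave a symbol to 55141 of 55487 genes, and 26086 had a count. Total counts were 1400887 to 4773750 per library. Counts were analysed in R 4.3.3 with edgeR 4.0.16 (TMM, filterByExpr, robust quasi-likelihood test, condition as the only term), with Benjamini-Hochberg adjustment over the 10876 genes tested and a threshold of 0.05. DESeq2 1.42.0 and limma 3.58.1 (voom) were alternatives, as were other scalings and filters, blocks for replicate or slice culture number, and leaving out each library. The study's own analysis used DESeq2. CPM values are TMM-scaled, log2 CPM has a prior count of 2, and single values were compared by two-sided exact permutation over 35 splits. Shares have 95% Wilson intervals. The common biological coefficient of variation was 0.609. On counts simulated for VPA against CTR with the trend of dispersion of these libraries, edgeR recovered 93 of 186 genes changed 4-fold among 9995 tested, with 5 false calls, and DESeq2 114 of 200 among 10876, with 32 false calls. With the single common dispersion for every gene, edgeR recovered 0 of 191 among 10297, with 0 false calls, and DESeq2 40 of 200 among 10876, with 7.

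The 10 genes and all lists were chosen with earlier results of these data known. Named genes are the 10, the genes of 3 clusters, up to 2 genes with the highest and 2 with the lowest log2 difference of each list (with 5 CPM or more in the group where they were higher), and the 3 nearest profiles of Alb, Apoa1 and Apoe. Saa4 was named because its count was small, after its value was seen. One gene that the rule would name is not reported here.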

Additional observations from a re-analysis of the deposited data

Results flagged for a closer look

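Among 56 sets of 4 VPA values examined, 10 held a value that stood apart from the other 3 by Dixon's 95% limit. For sets without ties, chance passes this limit in about 1 of 20, but 6 of the 10 held 3 listed zeros and 1 counted value, which passes it by construction. None concerned the level or share of the 10 plasma protein genes or their ratios to albumin. VPA library 2 had a total of 3102450 counts, beside 1400887 to 1515954 in the other 3. In VPA library 3, Apoa4 was at 82.8 CPM, Hamp at 797 CPM and Apoc2 at 349 CPM. In the same library Apom (33.1 CPM), Aco1 (18.1 CPM), Nr1h4 (17.4 CPM) and Afp (25.2 CPM) were counted while they were listed at 0 in the other VPA libraries. In VPA library 2 Apoc4 (22.0 CPM) and Serpina7 (11.5 CPM) were counted, both listed at 0 in the other 3.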

How the results depend on the processing

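For the 10 genes, 0 passed the threshold under every alternative, and adjusted p-values ran from 0.460 to 1.00. Leaving out 1 library at a time moved the log2 difference of Apoa1 between -2.11 and -0.56, of Alb between -0.13 and 0.89, of Trf between -0.91 and 0.52, of Apoa2 between -0.79 and 0.26, of Apoe between -0.24 and 0.25, of Ttr between -0.34 and 0.46, of Apob between 0.14 and 1.17, of Rbp4 between -0.63 and -0.02, of Apoc3 between -0.60 and -0.03 and of Ahsg between 0.24 and 0.80, and the log2 ratios to albumin of Apoa1 between -2.66 and -1.25, of Ahsg between -0.25 and 0.41 and of Apob between -0.35 and 0.59. The sign of Ttr also turned with DESeq2 (-0.0034), library size only (-0.073) and no filter on low counts (-0.11). With a replicate block by slice culture number Alb was at -0.11 and Ttr at -0.23, and with a replicate block by replicate number Apoe was at 0.028 and Trf at 0.091. Unadjusted edgeR p-values fell under 0.05 for Apoa1 (0.0161), Apob (0.0192) and Apoc3 (0.0123) with the culture block, for Apoa1 (0.00829) and Apob (0.0123) with the replicate number block, and for Apoa1 without CTR library 2 (0.0283) or VPA library 3 (0.0438), with adjusted values of 0.460 to 0.628. Over all genes 7.98% were under 0.05 with the culture block, 9.05% with the replicate number block, 7.44% without CTR library 2 and 9.10% without VPA library 3. The main fit left libraries unpaired, because not every pair with the same number had deviations that correlated over 0.1. That cut was arbitrary, and whether the numbers pair the libraries was not settled. With the culture block, where VPA library 1 has no CTR partner, the SE of the log2 difference was smaller. It went from 0.63 to 0.11 for Alb, from 0.81 to 0.39 for Apoa1 and from 0.39 to 0.37 for Ahsg. Deviations of libraries with the same culture number correlated at 0.107, 0.0256 and 0.0546, those of the 9 pairs with different culture numbers at -0.155 to 0.0714 (6 negative), and those with the same replicate number at -0.0539, 0.0546 and 0.107. Over all genes the count of calls was 1 by edgeR, 154 by DESeq2 (39 higher, 115 lower), 10 without a filter, 36 with at least 10 counts in every library, 0 with either block (Creb3l3 lost) and 0 to 2 when 1 library was left out, and the causes were not tested. The difference in the share of counts of the 10 genes (VPA minus CTR) was -0.158 percentage points and ran from -0.396 to 0.303 when 1 library was left out, above 0 without CTR library 3 (0.303) or VPA library 4 (0.0600), and was 0.0254 without mitochondrially encoded genes, all within the spread. Under the alternatives, 259 values kept their sign and side of the threshold or moved within the spread, 24 fold changes or ratios changed sign and 11 counts moved by over 1.5 times. None of the 10 genes was listed at 0. Among genes that were, Apoc2 had 0 counts in VPA library 2 and 443 in the shallower VPA library 3. Of 32 hepatocyte markers, 4 were at 0 in CTR library 2, the deepest, and 10 in VPA library 4. The part of depth in these zeros was not tested.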
